A study of Mus musculus with 9 samples.

Results

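The App family and the secretases that cut it were followed through 10 mouse genes: the precursor App and its homologues Aplp1 and Aplp2, the beta-secretases Bace1 and Bace2, the alpha-secretases Adam10 and Adam17, and the gamma-secretase components Psen2, Psenen and Ncstn. The genes were chosen by name, and each was read from a probe set that names that gene alone. All 10 were measured, out of 19938 genes on the array. Psenen had 2 such probe sets and was read from the one with the higher mean over the 9 arrays. Of the catalytic presenilin subunits of gamma-secretase, Psen2 is the one analysed here.

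The amyloid precursor protein crosses the membrane once and is cut in sequence. Alpha-secretases cut inside the amyloid-beta stretch and so prevent its release, whereas Bace1 cuts at its start and gamma-secretase then frees the peptide from the membrane. Gamma-secretase is a complex of a presenilin, nicastrin (Ncstn), Pen-2 (Psenen) and an Aph1 subunit. Alpha- and gamma-secretases have many other substrates, among them the Notch receptors.

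Brain tissue, which the series title names as cortex, came from mice about 5 months old and gave 9 arrays, 3 per group, labelled as biological replicates; whether a sample is 1 mouse or a pool is not stated. The groups were 5xFAD mice given human amylin, a pancreatic peptide hormone (5xFAD amylin), 5xFAD mice given phosphate-buffered saline (5xFAD PBS), and B6SJLF1/J wild-type mice given the same saline (wild type). All were injected into the peritoneum every day for 10 weeks. The 5xFAD line overexpresses mutant human APP and presenilin from transgenes driven by the neuronal Thy1 promoter and forms amyloid plaques, so it models amyloid made from transgenes and not from the mouse gene. No group of wild-type mice given amylin is among the samples.

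Values are log2 intensities. The array is of mouse design, its probe sequences were not used here, and how far the App probe set also binds the human transcript was not tested. Array medians lay between 5.71 and 5.79. Precision is limited by the number of arrays, and over all genes a group difference had a median standard error (SE) of 0.07 log2. A gene was called changed at a limma adjusted p under 0.05 over all 19938 genes.

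Markers of several cell types and brain regions differed with genotype, as the plot of marker lists by array shows. All 8 microglial markers rose in 5xFAD PBS against wild type, and the list's mean level ran from 8.03 to 8.33 in 5xFAD amylin, 8.12 to 8.71 in 5xFAD PBS and 7.001 to 7.07 in wild type. The 6 measured striatal markers all rose, with list means of 9.65 to 9.86 in 5xFAD amylin, 9.63 to 9.88 in 5xFAD PBS and 7.95 to 8.28 in wild type. All 6 hippocampal markers fell, with list means of 5.13 to 5.27 in 5xFAD amylin, 5.09 to 5.24 in 5xFAD PBS and 6.35 to 6.50 in wild type, as did all 6 thalamic markers. The 5 measured cortical layer markers had list means from 8.72 to 9.18 over the 9 arrays. In 5xFAD PBS against wild type 1 of the 5 was called, Fezf2, which fell by 0.62 on the log2 scale. Lamp5 was higher by 0.57 without passing (limma adjusted p = 0.102). Means were higher for 2 of the 5 and lower for 3, with a list median of -0.05. Between 5xFAD amylin and 5xFAD PBS none of the 31 markers of these 5 lists was called by limma, and 3 had an unadjusted p under 0.05. Oligodendrocyte list means were 9.56 to 9.79 in 5xFAD amylin, 9.80 to 9.96 in 5xFAD PBS and 10.03 to 10.24 in wild type. All 5 measured markers had lower means than wild type in both 5xFAD groups. Limma called 4 of the 5 lower in 5xFAD amylin and 1 of the 5 lower in 5xFAD PBS. Genotype and regional make-up cannot be told apart in these samples, and the part of these markers in the differences given for App and Aplp2 was not tested.

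**Figure D1:**
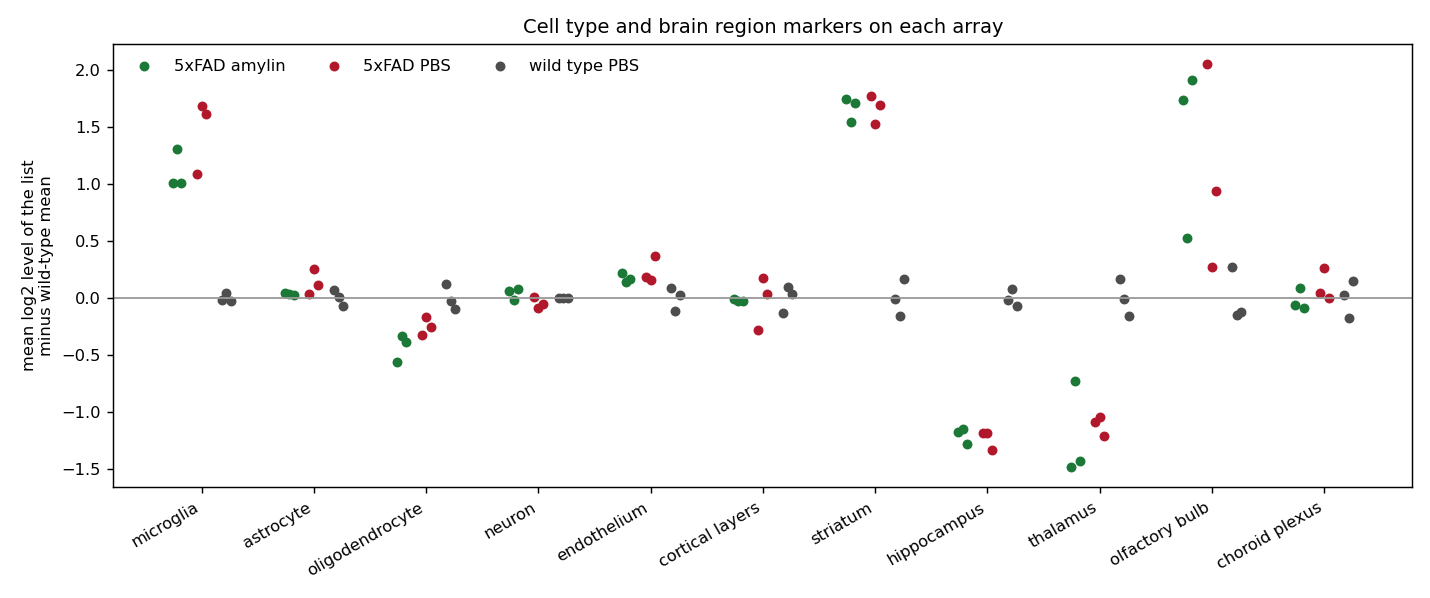
Mean log2 level of each marker list on each array, minus the mean of the 3 wild-type arrays, for 5xFAD amylin (green), 5xFAD PBS (red) and wild type (grey). Microglial and striatal lists lie above wild type on all 6 5xFAD arrays and hippocampal and thalamic lists below it, while olfactory bulb markers range from 0.27 to 2.05 among the 3 5xFAD PBS arrays.

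Against wild type, 2 of the 10 genes changed in 5xFAD PBS mice. Adam17, the inducible alpha-secretase that also releases tumour necrosis factor from the cell surface, rose by 0.31 log2, or 1.24-fold. Aplp2, a widely expressed App homologue, fell by 0.17 on the log2 scale. The other 8 did not pass, App among them. Of all genes, 8.58% were called in that comparison, 3.66% higher and 4.92% lower. In bulk tissue, a change in the number of cells of a type and a change in RNA per cell cannot be told apart.

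The median difference of the 10 genes was -0.06 log2, against -0.01 over all genes, and the differences ran from -0.17 to 0.31. The groups did not overlap for 6 of the 10, 3 higher and 3 lower in 5xFAD PBS, where 26.8% of all genes had groups without overlap, 11.2% higher and 15.6% lower. At an unadjusted p under 0.05 stood 4 of the 10, against 21.2% of all genes.

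**Figure D2:**
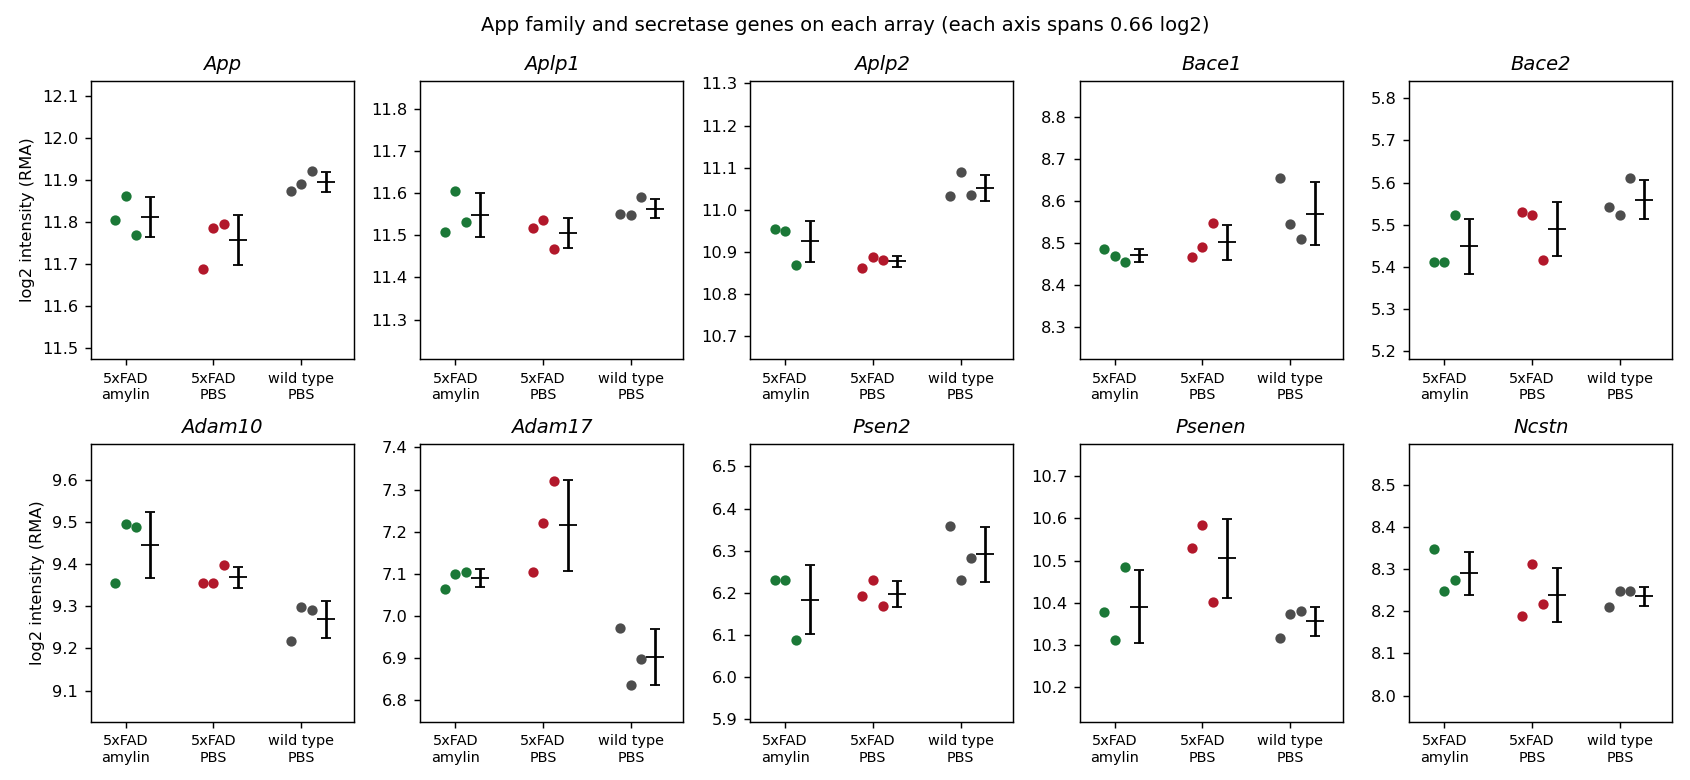
Log2 intensity of each of the 10 genes on each array (points), with the mean and SD of the 3 arrays of a group beside them. Every axis spans the same range in log2, so that spreads can be compared. Adam17 lies above wild type on all 6 5xFAD arrays, and App and Aplp2 lie below wild type on all 6.

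The promoters of Adam17 and Aplp2 are shown because these genes passed in that comparison, and that of App because it is the precursor itself, though App did not pass. Each runs from 250 bases before to 50 after the RefSeq start (GRCm38.p6) and lies on the minus strand, and capitals mark the GC box GGGCGG on either strand. App is at chr16:85173658-85173957, Aplp2 at chr9:31211799-31212098 and Adam17 at chr12:21373583-21373882.
App: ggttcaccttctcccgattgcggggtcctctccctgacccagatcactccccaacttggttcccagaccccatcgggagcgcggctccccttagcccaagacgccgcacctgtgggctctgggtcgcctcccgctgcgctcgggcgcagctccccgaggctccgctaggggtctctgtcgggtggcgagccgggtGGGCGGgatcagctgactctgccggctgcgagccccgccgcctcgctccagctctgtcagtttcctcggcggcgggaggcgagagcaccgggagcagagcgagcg
Aplp2: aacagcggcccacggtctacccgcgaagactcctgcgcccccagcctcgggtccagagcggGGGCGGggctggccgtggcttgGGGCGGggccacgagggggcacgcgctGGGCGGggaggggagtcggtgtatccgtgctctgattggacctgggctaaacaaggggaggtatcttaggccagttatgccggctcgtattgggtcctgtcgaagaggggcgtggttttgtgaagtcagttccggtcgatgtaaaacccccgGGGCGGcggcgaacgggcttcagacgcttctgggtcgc
Adam17: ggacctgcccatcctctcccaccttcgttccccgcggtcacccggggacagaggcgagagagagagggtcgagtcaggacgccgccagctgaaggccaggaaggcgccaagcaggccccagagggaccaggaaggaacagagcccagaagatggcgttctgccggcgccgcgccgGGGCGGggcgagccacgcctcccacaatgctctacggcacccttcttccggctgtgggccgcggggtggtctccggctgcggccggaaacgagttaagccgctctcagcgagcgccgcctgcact
The App promoter holds 1 GC box, that of Aplp2 holds 4 and that of Adam17 holds 1, and 35.7% of the 32851 RefSeq promoters of this length hold at least 1. GC content was 71.0% for App, 67.0% for Aplp2 and 70.0% for Adam17, against a median of 52.7% over all promoters. The motif CCAAT, searched on both strands, occurred 2 times in the Aplp2 window and 0 times in the App and Adam17 windows, and 37.4% of all promoters hold it. The motif TATAAA, on both strands, was in none of these 3 windows and is in 13.6% of all promoters. No matched stretches overlapped in these 3 windows. Promoter windows were matched for 8 of the 10 genes, and Bace1 and Bace2 have none in the table used.

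Among the substrates, App (probe set 10440491) had 11.80, 11.86 and 11.77 in 5xFAD amylin, 11.69, 11.78 and 11.80 in 5xFAD PBS, and 11.87, 11.89 and 11.92 in wild type. All 6 5xFAD arrays were below the lowest wild-type array, and the amylin and PBS groups of 5xFAD mice overlapped. In 5xFAD PBS the App difference from wild type was -0.14 ± 0.05 log2 (SE), with a 95% interval of -0.25 to -0.03, which missed the threshold (limma adjusted p = 0.139). The group mean was lowest in 5xFAD PBS, next in 5xFAD amylin and highest in wild type. With the mean of the 5 olfactory bulb markers as a term, chosen after seeing the data, the App difference was -0.07 log2 (adjusted p = 0.594). Those markers averaged 7.47, 6.26 and 7.65 in 5xFAD amylin, 7.78, 6.005 and 6.67 in 5xFAD PBS, and 6.01, 5.58 and 5.61 in wild type. The array with the lowest App level, 5xFAD PBS replicate 1, had the highest olfactory bulb mean, and the App difference without it was -0.10. Over all 18 alternatives the App difference ran from -0.16 to -0.07, and App was called in 0 of them. Deviations of App from group means had r = -0.90 with the olfactory bulb mean, 0.89 with the microglial and -0.86 with the neuronal mean. These values were the largest in size among the 11 marker lists. App had r = -0.83 with the olfactory bulb mean over the 9 arrays, which share the group differences. Over the same arrays r was -0.66 with the microglial mean, opposite in sign to the deviations, and -0.07 with the neuronal mean. A term chosen after seeing the data cannot show what accounts for the App difference. Whether any of these lists accounts for it was not tested.

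Aplp2 (probe set 10592023) had 10.96, 10.95 and 10.87 in 5xFAD amylin, 10.86, 10.89 and 10.88 in 5xFAD PBS, and 11.03, 11.09 and 11.03 in wild type. The 5xFAD PBS arrays lay close to each other and all below wild type. Aplp2 differed by -0.17 ± 0.05 log2 between 5xFAD PBS and wild type, a fold of 0.886 (limma adjusted p = 0.0461). This call lies close to the threshold. It was lost in 10 of 18 alternatives, among them each of the 6 that leave out 1 array and the repeated quantile normalization (-0.12, adjusted p = 0.172), with adjusted p from 0.0191 to 0.237 over all alternatives.

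Aplp1 (probe set 10561927), the homologue confined largely to neurons, averaged 11.55 ± 0.05 in 5xFAD amylin, 11.51 ± 0.04 in 5xFAD PBS and 11.56 ± 0.02 in wild type (SD, n = 3 each). The 5xFAD PBS arrays lay just below wild type without overlap, by -0.06 ± 0.05 log2 (adjusted p = 0.586), a difference close to its standard error.

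Neither beta-secretase passed. Bace1 (probe set 10584941), the enzyme that makes the first amyloid-forming cut, averaged 8.47 ± 0.02 in 5xFAD amylin, 8.50 ± 0.04 in 5xFAD PBS and 8.57 ± 0.08 in wild type (SD, n = 3 each). The difference of 5xFAD PBS from wild type was -0.07 ± 0.05 log2 (limma adjusted p = 0.546, 95% interval -0.18 to 0.05), and these groups overlapped. Bace2 (probe set 10437210), which is best known for cuts outside the brain, averaged 5.45 ± 0.06 in 5xFAD amylin, 5.49 ± 0.06 in 5xFAD PBS and 5.56 ± 0.05 in wild type (SD, n = 3 each). Its groups overlapped too, with a difference of -0.07 ± 0.06 between 5xFAD PBS and wild type (adjusted p = 0.567). For both genes the mean was lowest in 5xFAD amylin and highest in wild type, and neighbours in that order did not differ beyond their spread.

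The alpha-secretases both had higher means in 5xFAD mice, and Adam17 passed. Adam17 (probe set 10399605) had 7.06, 7.10 and 7.10 in 5xFAD amylin, 7.10, 7.22 and 7.32 in 5xFAD PBS, and 6.97, 6.84 and 6.90 in wild type. Both 5xFAD groups lay wholly above wild type. The difference between 5xFAD PBS and wild type was 0.31 ± 0.06 log2 (limma adjusted p = 0.0154, 95% interval 0.17 to 0.45). Leaving out wild-type replicate 2 or 3 or 5xFAD PBS replicate 3 ended the call (adjusted p = 0.0595, 0.0555 and 0.0548), and it held in the other 15 of 18 alternatives, with adjusted p from 0.00532 to 0.0595 over all 18. Several marker lists moved with Adam17, the microglial and endothelial ones among them. The 8 microglial markers stood at list means of 8.03, 8.33 and 8.04 in 5xFAD amylin, 8.12, 8.71 and 8.63 in 5xFAD PBS, and 7.01, 7.07 and 7.001 in wild type. The 6 endothelial markers stood at 6.94, 6.86 and 6.89 in 5xFAD amylin, 6.90, 6.88 and 7.09 in 5xFAD PBS, and 6.81, 6.61 and 6.75 in wild type, so that both lists were above wild type on all 6 5xFAD arrays. None of the 6 endothelial markers passed in 5xFAD PBS against wild type by limma, and 5 had an unadjusted p under 0.05. Over the 9 arrays, which share the group differences, Adam17 had r = 0.93 with the microglial mean (0.61 for deviations from group means) and r = 0.91 with the endothelial mean (0.75 for deviations). The hippocampal mean had r = -0.86 with Adam17 (-0.66 for deviations) and the striatal mean 0.82 (-0.06). The thalamic mean had r = -0.73 (0.07 for deviations) and the astrocyte mean 0.69 (0.39). The part of any of these lists in the Adam17 difference was not tested.

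Adam10 (probe set 10586844), the main constitutive alpha-secretase of neurons, had 9.35, 9.49 and 9.49 in 5xFAD amylin, 9.35, 9.35 and 9.40 in 5xFAD PBS, and 9.22, 9.30 and 9.29 in wild type. All 6 5xFAD arrays were above the highest wild-type array. Between 5xFAD PBS and wild type the Adam10 difference was 0.10 ± 0.05 log2, short of the threshold (limma adjusted p = 0.338).

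No gamma-secretase component passed. Psenen (probe set 10562000), which encodes the Pen-2 subunit that triggers maturation of presenilin, had 10.38, 10.31 and 10.48 in 5xFAD amylin, 10.53, 10.58 and 10.40 in 5xFAD PBS, and 10.32, 10.37 and 10.38 in wild type. The 5xFAD PBS arrays were above wild type without overlap, by 0.15 ± 0.06 log2 (limma adjusted p = 0.217). The second Psenen probe set (10512125) gave 0.16 ± 0.07 for the same comparison, and its values followed those of the first with r = 0.996 over the 9 arrays; whether they share probes was not tested.

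Psen2 (probe set 10360648), a catalytic subunit found largely in late endosomes and lysosomes, averaged 6.18 ± 0.08 in 5xFAD amylin, 6.20 ± 0.03 in 5xFAD PBS and 6.29 ± 0.06 in wild type (SD, n = 3 each). All 3 groups overlapped, and the difference of 5xFAD PBS from wild type was -0.09 ± 0.06 log2 (adjusted p = 0.419). Ncstn (probe set 10360205), the subunit that receives the substrate, averaged 8.29 ± 0.05 in 5xFAD amylin, 8.24 ± 0.06 in 5xFAD PBS and 8.24 ± 0.02 in wild type (SD, n = 3 each). Its difference of 0.0038 ± 0.05 between 5xFAD PBS and wild type (adjusted p = 0.985) had a sign that turned with array weights and without wild-type replicate 1 or 5xFAD PBS replicate 2.

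Some deposited values are exactly equal between arrays. Psen2 has 6.23 on 4 arrays from all 3 groups, Adam10 has 9.35 on 3 arrays (1 of 5xFAD amylin and 2 of 5xFAD PBS), Bace2 has 5.52 on 3 arrays and Ncstn has 8.25 on 2. Such ties occur in 54.8% of all genes, and groups that share a tied value count as overlapping.

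**Figure D3:**
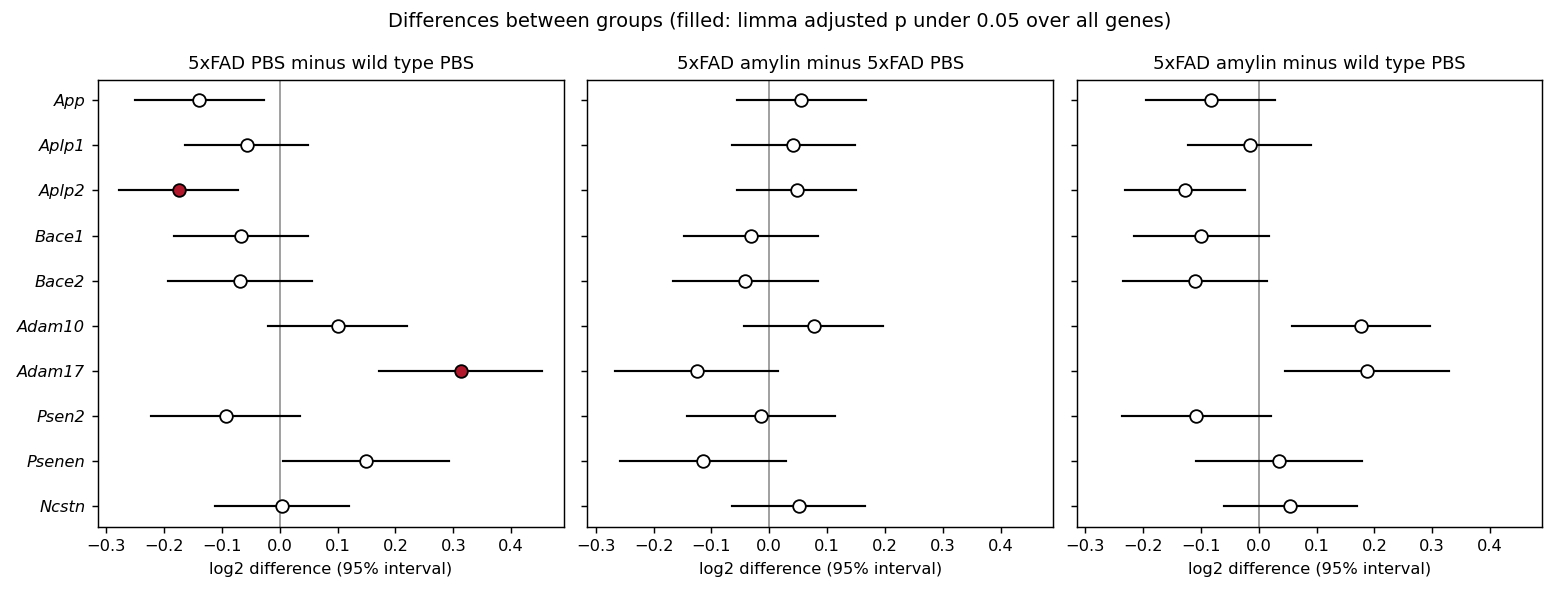
Log2 differences of the 10 genes (points) with 95% intervals from limma, for 5xFAD PBS minus wild type, 5xFAD amylin minus 5xFAD PBS, and 5xFAD amylin minus wild type. Filled points passed an adjusted p under 0.05: Adam17 and Aplp2 in the first comparison and none in the others.

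Between 5xFAD amylin and 5xFAD PBS mice, the comparison that asks what the hormone did, none of the 10 genes passed by limma, and 0 had an unadjusted p under 0.05. Over all genes 1 passed, or 0.00502%, and 6.90% had an unadjusted p under 0.05. The means were higher under amylin for 5 genes and lower for 5, with a median difference of 0.01 log2 against 0.00064 over all genes. The differences ran from -0.13 for Adam17 to 0.08 for Adam10. The groups overlapped for all 10, where 9.3% of all genes had groups without overlap, 5.49% higher and 3.81% lower.

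The intervals bound the average difference between the 5xFAD groups. Over the 10 genes the 95% intervals lay between -0.27 and 0.20 log2, or folds of 0.831 to 1.15. Among the substrates, App differed by 0.06 ± 0.05 log2 (SE; interval -0.06 to 0.17, limma adjusted p = 0.848), Aplp1 by 0.04 ± 0.05 and Aplp2 by 0.05 ± 0.05. Bace1 differed by -0.03 ± 0.05 (interval -0.15 to 0.08) and Bace2 by -0.04 ± 0.06. These 5 differences were close to their standard errors or smaller.

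The largest of the 10, that of Adam17, was -0.13 ± 0.06 log2 (interval -0.27 to 0.02, limma adjusted p = 0.751). The 3 amylin arrays lay between 7.06 and 7.10, and the lowest 5xFAD PBS array, replicate 1, stood at 7.10. Psenen differed by -0.11 ± 0.06 (adjusted p = 0.778), Adam10 by 0.08 ± 0.05 (adjusted p = 0.803), Ncstn by 0.05 ± 0.05 and Psen2 by -0.01 ± 0.06.

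Set against wild type, 5xFAD amylin mice again had higher Adam10 and Adam17 means, but 0 of the 10 genes passed by limma, where 5.21% of all genes did (2.35% higher and 2.86% lower), and 3 of the 10 had an unadjusted p under 0.05, against 19.2% of all genes. Adam10 differed by 0.18 ± 0.05 log2 (adjusted p = 0.0987) and passed with array weights (0.0347) and without 5xFAD amylin replicate 1 (0.0406), with 0.0347 to 0.304 over the alternatives. Adam17 differed by 0.19 ± 0.06 (adjusted p = 0.135), and Aplp2 by -0.13 ± 0.05 (adjusted p = 0.161). The groups did not overlap for 5 genes, 2 higher (Adam10 and Adam17) and 3 lower (App, Aplp2 and Bace1), where 23.1% of all genes had groups without overlap, 10.8% higher and 12.3% lower. The median over the 10 was -0.05 log2, against -0.01 over all genes. This comparison shares its wild-type arrays with the first and its amylin arrays with the second, so its values are not separate evidence for either.

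Likeness to other genes was measured as Pearson's r over the 9 arrays, which share the group differences. Genes most like a called gene were thus picked on those differences, so their own group differences are not separate evidence. App was most like Hivep1 (r = 0.97), Slc37a3 (0.96) and Galnt9 (0.96), with r of the deviations from group means at 0.91 for each. Adam17 was most like Hvcn1 (0.99), a voltage-gated proton channel of immune cells, then Sting1 (0.98), the adaptor of cytosolic DNA sensing, and Fig4 (0.98), a phosphoinositide phosphatase. Their deviations from group means had r = 0.93, 0.88 and 0.89 with those of Adam17. Hvcn1 rose by 0.99 ± 0.14 log2 and Sting1 by 0.94 ± 0.13 in 5xFAD PBS against wild type (limma adjusted p = 0.00272 and 0.00228), while Fig4 did not pass. Galnt9 fell by 0.46 in that comparison, and Hivep1 and Slc37a3 did not pass. Aplp2 was most like Rasd1 (0.98), a small G protein induced by dexamethasone, Slc7a14 (0.98) and Pkp2 (0.97), which fell by 1.25, 0.67 and 1.34 on the log2 scale in 5xFAD PBS (adjusted p = 0.000391, 0.00172 and 0.000711). Among the 10 genes themselves, App and Aplp2 had r = 0.87, and 0.48 for the deviations from group means, and Aplp2 and Adam17 had r = -0.86, and -0.18 for the deviations.

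The other genes around App cutting were described through 6 lists holding 113 genes, 109 of them measured. The lists were chosen with earlier results of these data known, so their shares of called genes are no test of the lists. In 5xFAD PBS against wild type, 7 rose and 12 fell by limma, 17.4% of the 109 against 8.58% of all genes, with a median difference of -0.06 log2. Between 5xFAD amylin and 5xFAD PBS none of the 109 passed by limma (7 at an unadjusted p under 0.05, where 6.90% of all genes were). These groups did not overlap for 4 of 29 adaptors and sorting proteins, 2 of 9 other proteases and 1 of 26 Notch pathway genes. They overlapped for every gene of the remaining lists, where 9.3% of all genes had groups without overlap. In 5xFAD amylin against wild type 2 rose and 7 fell, 8.26% of the 109 against 5.21% of all genes. Of the 19 calls in the first comparison, 6 held in every alternative run: Apba2, Cachd1, Pcsk5, Selplg, Sez6l and Sez6l2. With 1 of the 6 arrays left out, between 8 and 12 of the 109 were called.

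**Figure D4:**
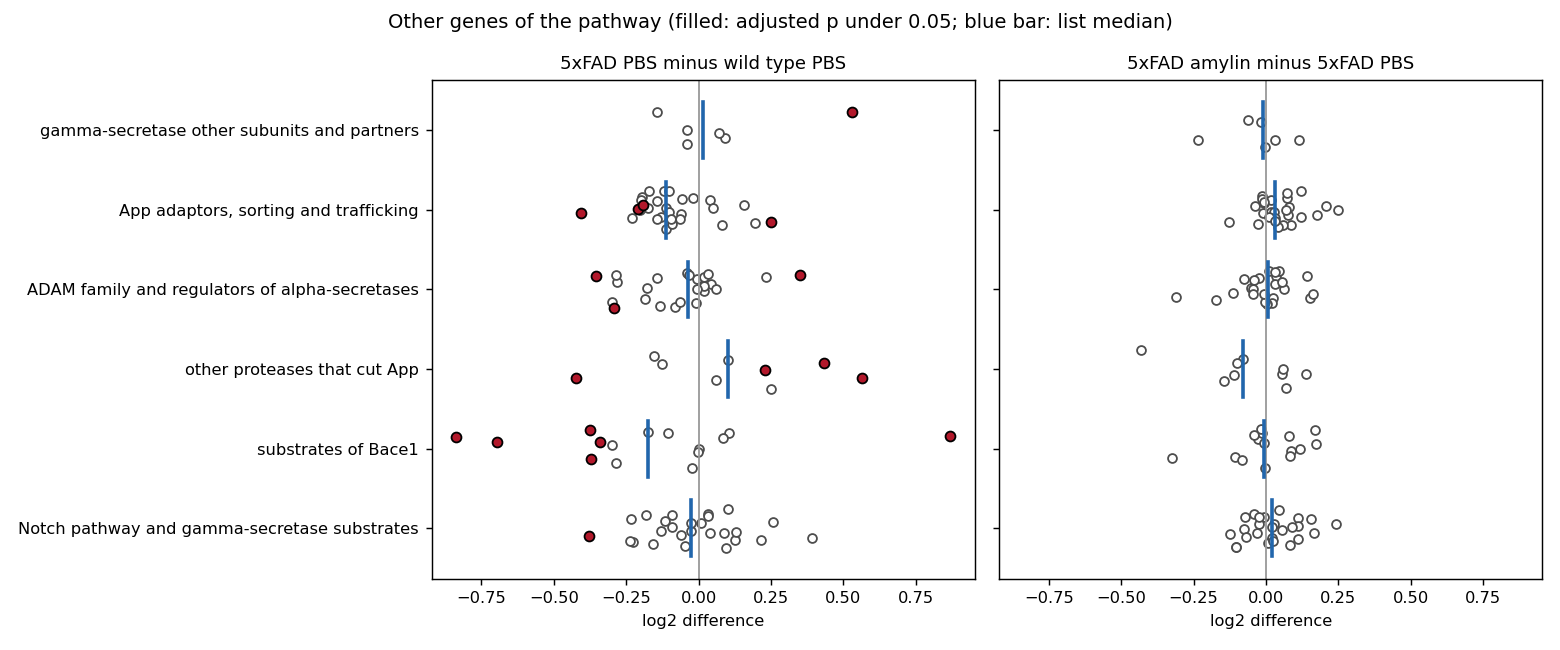
Log2 differences of the measured genes of 6 lists (points; vertical position within a list is arbitrary) in 5xFAD PBS minus wild type and in 5xFAD amylin minus 5xFAD PBS. Filled points passed an adjusted p under 0.05 and blue bars are list medians; 19 genes passed in the first panel and 0 in the second.

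Among 6 other gamma-secretase subunits and partners 1 rose, Gsap, reported to promote gamma-secretase cutting of App. Gsap had 5.62, 5.79 and 6.14 in 5xFAD amylin, 6.13, 6.10 and 6.03 in 5xFAD PBS, and 5.56, 5.59 and 5.53 in wild type. The 5xFAD PBS arrays were all well above wild type, by 0.53 ± 0.11 log2 (limma adjusted p = 0.0173). That call was lost in 5 of 17 alternatives. The amylin arrays were also all above wild type, and amylin replicate 3 stood above every 5xFAD PBS array. Between 5xFAD amylin and 5xFAD PBS, Gsap differed by -0.23 ± 0.11 log2 without passing (limma adjusted p = 0.732). The Aph1 scaffold subunit Aph1b differed by -0.14 ± 0.06 in 5xFAD PBS against wild type (adjusted p = 0.247). The retrieval receptor Rer1 differed by 0.09 ± 0.06, and neither passed.

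Of 9 other proteases that can cut App 3 rose and 1 fell in 5xFAD PBS against wild type, with a list median of 0.10 log2. Legumain (Lgmn), a lysosomal protease also called delta-secretase, rose by 0.43 ± 0.09 log2 (limma adjusted p = 0.0189). Caspase 8 (Casp8), which starts extrinsic apoptosis, rose by 0.56 ± 0.11 and caspase 6 (Casp6), an executioner caspase, by 0.23 ± 0.06 (adjusted p = 0.0142 and 0.0359). The membrane metalloprotease Mmp14 fell by 0.42 on the log2 scale. The call of Casp6 was lost in 9 of 17 alternatives and that of Casp8 in 2 of 17. Those of Lgmn and Mmp14 were each lost in 6 of 18. Casp8 stood at 6.22, 6.05 and 6.22 in 5xFAD amylin, 6.36, 6.78 and 6.64 in 5xFAD PBS, and 6.11, 5.87 and 6.11 in wild type. The amylin arrays were below all 5xFAD PBS arrays, by -0.43 ± 0.11 log2, without passing (adjusted p = 0.60), and that difference shares the 5xFAD PBS arrays with the first. Of all genes, 9.3% had groups without overlap between 5xFAD amylin and 5xFAD PBS. The 8 microglial markers rose by a median of 1.04 log2 in 5xFAD PBS against wild type, and their part in the protease differences was not tested.

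Of 24 ADAM family members and regulators of the alpha-secretases 1 rose and 2 fell in 5xFAD PBS, with a median of -0.04 log2. Dlg1, a scaffold also known as SAP97 that carries Adam10 to the synapse, rose by 0.35 ± 0.06 log2 (limma adjusted p = 0.00985). Dlg1 had 10.28, 10.08 and 10.14 in 5xFAD amylin, 10.13, 10.18 and 10.15 in 5xFAD PBS, and 9.73, 9.89 and 9.80 in wild type, so that both 5xFAD groups lay above wild type. The proprotein convertase Pcsk5 fell by 0.35 and the metalloprotease Adam15 by 0.29 on the log2 scale (adjusted p = 0.00519 and 0.0372). The same 3 genes were called with the same signs in 5xFAD amylin against wild type, on the same wild-type arrays. The Adam15 call was lost in 8 of 18 alternatives in each of these comparisons.

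Of 29 App adaptors and sorting proteins 1 rose and 3 fell in 5xFAD PBS. Means were lower for 23 of the 29, with a median of -0.11 log2 against -0.01 over all genes. The share of all genes with lower means was not computed, so the count of 23 has no background beside it. Apba2 (Mint2), a neuronal adaptor that binds the App tail, fell by 0.41 on the log2 scale (limma adjusted p = 0.00544). The sorting receptor Sort1 fell by 0.21 and the retromer subunit Vps26b by 0.19 (limma adjusted p = 0.0456 and 0.0478). Itm2a, a membrane protein of the BRI family, rose by 0.25 ± 0.06 (adjusted p = 0.0404). The calls of Sort1 and Vps26b were each lost in 11 of 18 alternatives and that of Itm2a in 9 of 18. Vps26b had 10.15, 10.11 and 10.13 in 5xFAD amylin, 9.80, 9.94 and 9.89 in 5xFAD PBS, and 10.03, 10.10 and 10.09 in wild type. Its amylin arrays were above all 5xFAD PBS arrays, by 0.25 ± 0.05 log2, without passing (adjusted p = 0.495). Of all genes, 9.3% had groups without overlap in that comparison. The retromer-associated sorting nexin Snx27 showed 0.21 ± 0.06 in the same comparison (adjusted p = 0.634). Of the 8 neuronal markers 2 were called in 5xFAD PBS, Snap25 and Slc17a7, which fell by 0.28 and 0.23 on the log2 scale. Means were lower for 5 of the 8 and higher for 3, with a list median of -0.07 log2. The part of neuronal content in the adaptor list was not tested.

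Of 15 substrates of Bace1 1 rose and 5 fell in 5xFAD PBS, with a median of -0.17 log2. Sez6l and Sez6l2, seizure-related membrane proteins of neurons, fell by 0.70 and 0.37 on the log2 scale (limma adjusted p = 0.000381 and 0.00416). Sez6l had 8.83, 8.98 and 8.79 in 5xFAD amylin, 8.80, 8.63 and 8.65 in 5xFAD PBS, and 9.35, 9.41 and 9.42 in wild type. The 2 genotypes were thus apart on every array. Cachd1, a calcium channel subunit-like protein, fell by 0.84 (adjusted p = 0.00154), the adhesion molecule Chl1 by 0.38 and the neuregulin Nrg3 by 0.34. The calls of Chl1 and Nrg3 were each lost in 7 of 18 alternatives. Selplg, a selectin ligand of microglia and leukocytes, rose by 0.87 ± 0.13 (adjusted p = 0.00439). The transcript levels of substrates say nothing of how much of each is cut. The thalamic and hippocampal markers fell by medians of 1.21 and 1.24 on the log2 scale in the same comparison, and their part in these differences was not tested.

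Of 26 genes of the Notch pathway and other gamma-secretase substrates 0 rose and 1 fell in 5xFAD PBS by limma, the ephrin receptor Epha4, by 0.38 on the log2 scale (adjusted p = 0.0442). That call was lost in 9 of 18 alternatives, with adjusted p from 0.00961 to 0.272. The list's median was -0.03 log2. The neuronal cadherin Cdh2 (-0.18 ± 0.06) and the Notch coactivator Maml2 (-0.23 ± 0.07) did not pass (adjusted p = 0.102 and 0.0815).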

How the data were processed

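Total RNA was hybridised to 1 Affymetrix mouse gene array per sample. The authors deposited log2 intensities for 35556 probe sets. The submitters' processing notes name RMA and oligo, an R package, without a version. RMA corrects the background within an array, equalises array quantiles and summarises probes. For the probe annotation, no genome build is named in the sources used here.

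Of the probe sets, 21789 name 1 gene, 1621 several and 12146 none, and the highest of a gene's probe sets by mean stood for it, which left 19938 genes with none removed for low signal. All 9 arrays entered 1 limma fit (version 3.58.1, in R 4.3.3) with 6 residual and 3.53 prior degrees of freedom, an untrended prior and Benjamini-Hochberg adjustment over all genes; intervals are 95%. The labels call the samples biological replicates. The labels do not say that equal replicate numbers mark a shared litter or day, so the numbers were not taken to pair samples. Same-numbered samples of different groups had deviations correlated from -0.06 to 0.18, with 4 of 9 pairs above 0.1. Pairs with different numbers ran from -0.23 to 0.13. The script was tested on simulated data.

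The 10 genes and the lists were chosen with earlier results of these data known. Named from the lists are genes called in any comparison and the 3 with the smallest p per list in each 5xFAD PBS comparison; the text gives part of them. Alternatives were repeated quantile normalization, median centring, leaving out the lowest 25% or 50% of genes, a trended robust prior, 2-group fits, array weights, the replicate block, other choices of probe set, all probe sets, each array left out, and, added after seeing the data, an olfactory bulb term.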

Additional observations from a re-analysis of the deposited data

How the results depend on the processing

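Of the 10 genes, 2 were called in 5xFAD PBS against wild type. That count was 1 with repeated quantile normalization, with the replicate block (where Adam17 stayed and Aplp2 had an adjusted p of 0.0771), with all probe sets tested and with the olfactory bulb term, and 0 to 1 with 1 array left out (0 without wild-type replicate 2 or 3 or 5xFAD PBS replicate 3, with 3, 2 and 4 of the 10 at an unadjusted p under 0.05). For 5xFAD amylin against 5xFAD PBS it was 0 by limma in every alternative run, with 0 to 1 of the 10 at an unadjusted p under 0.05. For 5xFAD amylin against wild type it was 0, and 1 with array weights or without amylin replicate 1 (0 to 1 with 1 array left out). Over all genes, 1710 were called in the first comparison, 1059 with the olfactory bulb term and 863 to 1306 with 1 array left out. In the second, 1 was called, and by limma 0 with only the 2 groups, with the replicate block and with all probe sets tested (938, 1411 and 2186 at an unadjusted p under 0.05), 2 with the olfactory bulb term, and 0 to 7 with 1 array left out (7 without 5xFAD PBS replicate 1, 3 without replicate 2). In the third, 1039 were called, 573 with all probe sets, 454 with the olfactory bulb term and 447 to 911 with 1 array left out. The replicate numbers were not taken to pair the samples, since the labels do not say that they do. Of the same-number correlations 4 of 9 exceeded 0.1, which does not show that pairing is absent. Differences near 0 turned sign without passing: Aplp1 in 5xFAD amylin minus wild type (0.010 with repeated quantile normalization, 0.0077 with array weights, 0.026 with the olfactory bulb term, and -0.044 to 0.0055 with 1 array left out), Ncstn in 5xFAD PBS minus wild type (-0.0095 with array weights, and -0.032 to 0.029 with 1 array left out), Psen2 in 5xFAD amylin minus 5xFAD PBS (0.00066 with repeated quantile normalization, 0.0060 with array weights, and -0.038 to 0.033 with 1 array left out), Psenen in 5xFAD amylin minus wild type (-0.00060 with the olfactory bulb term, and -0.012 to 0.074 with 1 array left out) and Rer1 in 5xFAD amylin minus 5xFAD PBS (0.00081 with array weights). The causes were not tested. Bace2 and Psen2 are among the lowest 50% of genes and have no value in that alternative. Detection above background is not recorded in the values used here.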
